A study of Cervus nippon with 12 samples.

Results

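The miR-34 family was followed in cultured cells of the sika deer antler (Cervus nippon). Its members were found by name, as every deposited name of the form bta-miR-34 with the number exact and any letter or arm suffix, which gave 3 names, miR-34a, miR-34b and miR-34c, of 545 listed (475 with a cattle name and 70 named novel_). The family was chosen by the reads of miR-34c, which were nearly equal in CP_0 replicate 3 and in the CP_14 and CC libraries, so its levels are described below without a test, while miR-34a, whose values were not used in that choice, was tested. Small RNA libraries were made from antler chondrocytes (CC) and from reserve mesenchyme cells (RMCs), the mesenchymal stem cells of the growing antler tip, after 0 (CP_0), 7 (CP_7) or 14 days (CP_14) in chondrogenic medium, with 3 libraries in each of the 4 groups. All cells are labelled wild type, no transgene or other agent was used in these groups, and the RMCs of CP_0 had been grown in maintenance medium with fetal bovine serum, while CP_7 and CP_14 were cultured in tubes with the chondrogenic medium renewed every 2 days. The cells came from healthy male sika deer of 3 years, but which animal gave which library is not stated, so the p-values below measure only the spread between these libraries.

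MicroRNAs of the miR-34 family repress messenger RNAs of cell cycle and survival genes such as CDK6, MYC and BCL2. In mammals miR-34a is made from a transcript of its own, while miR-34b and miR-34c are cut from a shared precursor transcript at another locus. The miR-449 microRNAs carry the same seed, and miR-34b, miR-34c and miR-449 are best known from epithelia with motile cilia. In cartilage, miR-34a has been studied mainly for its part in chondrocyte death and in senescence.

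The authors deposited 1 value for each miRNA in each library, namely its reads scaled to 1000000 listed reads (RPM, under the header TPM). Every value was a whole multiple of the value of 1 read within 0.01 read, so the reads themselves were recovered. The CP_7 libraries were the shallowest (539455 to 1032029 reads) and those of CC the deepest (9714090 to 10256572), with 2973442 to 4097304 reads for CP_0 and 2791559 to 3864900 for CP_14. A count of 0 reads in a library allows up to 5.56 RPM in the shallowest and 0.29 RPM in the deepest library (3 reads). These limits and the intervals below cover counting error only, because the reads carry no molecular identifiers and may be copies of one molecule. A single miRNA, miR-21-5p, took 23.2% ± 1.62 (SD, n = 3) of the reads in CP_7 and 75.2% ± 2.04 in CC, which moves the RPM of all others, so that values scaled by composition factors (TMM-normalized RPM) are given beside RPM. The cartilage markers miR-140 and miR-455 (3 of 3 names with reads) summed to 9043 to 11415 RPM over the 12 libraries, nearly all of it miR-140. This narrow range holds for RPM only. With composition factors miR-140 was lower in CP_7 than in CP_0 (log2 difference -1.03). miR-455-3p was highest in CP_7, at 133 to 141 RPM against 20.9 to 51.9 RPM in all other libraries. Some libraries stood apart from their group: CP_0 replicate 3, as described below, CP_7 replicate 3 in miR-126-3p, an endothelial miRNA (1658 reads), and CP_7 replicate 1 in miR-9-5p, a neuronal one (1430 reads). Values without these libraries are given for some of the results below, and not for every value or call that they changed. For miR-34a the ranges with each library left out are given at the end.

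miR-34a was the main member in every library. In RPM its level was 424 ± 64.1 (SD, n = 3) at day 7, 279 ± 13.9 at day 14, 205 ± 16.2 at day 0 and 134 ± 9.81 for the chondrocytes. Library by library, CP_0 stood at 224, 194 and 198 RPM for replicates 1, 2 and 3, and CP_7 at 439, 480 and 354 RPM. The CP_14 libraries held 268, 294 and 273 RPM and the CC libraries 123, 138 and 141 RPM. On this scale no pair of groups overlapped, with day 7 highest and chondrocytes lowest. The share of all miRNAs without overlap was not counted, but shifts in these directions were common. With library size only, the median log2 difference was 1.12 for CP_7 against CP_0 (246 miRNAs) and -1.44 for CC against CP_7 (276 miRNAs). In bulk libraries such as these, fewer cells that express a miRNA and less of it per cell cannot be told apart.

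The order changed once composition factors were applied. The TMM-normalized level was 281 ± 16.3 RPM (SD, n = 3) in CP_14, 234 ± 6.38 in CP_0, 225 ± 57.8 in CP_7 and 222 ± 6.86 in CC. The CP_7 libraries stood at 222, 285 and 169 RPM, so that replicate 2 lay among the CP_14 libraries (262, 287 and 293 RPM) and replicate 3 below all others. CP_0 held 241, 229 and 231 RPM and CC 220, 230 and 217 RPM, and these groups overlapped. The high RPM of miR-34a at day 7 therefore went with a higher RPM of other miRNAs, whose changes are given below.

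**Figure D1:**
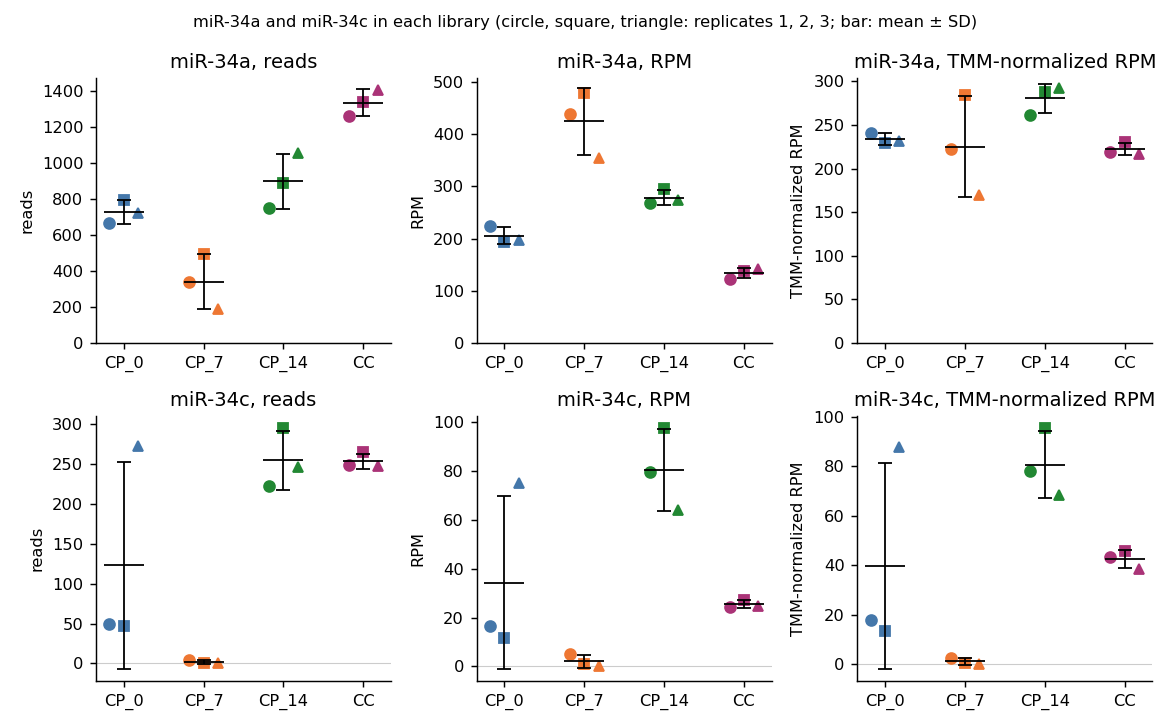
Levels of miR-34a (top) and miR-34c (bottom) in each library as reads, RPM and TMM-normalized RPM, by group; symbols are replicates 1, 2 and 3 and the bars give mean ± SD of 3 libraries. miR-34a is highest at day 7 in RPM (424) but not after TMM normalization (225), and miR-34c of CP_0 replicate 3 (273 reads) sits with the CP_14 and CC libraries (223 to 295 reads).

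For miR-34a, limma was fitted to log2(TMM-normalized RPM + 1) over all miRNAs that passed a filter on low counts, separately for each pair of groups, with a threshold of 0.05 on the Benjamini-Hochberg adjusted p. From day 0 to day 7 the log2 difference was -0.035 (95% interval -0.42 to 0.35, adjusted p = 0.88 by limma), in a comparison in which 63.8% of the 246 miRNAs tested were called. From day 7 to day 14 it was 0.27 (-0.13 to 0.67, adjusted p = 0.22 by limma, background 52.8% called). That difference passed the threshold without CP_7 replicate 2 (0.53, adjusted p = 0.034 by limma). Between CC and CP_7 it was -0.26 (-0.65 to 0.12, adjusted p = 0.19 by limma, background 67.4%), and its sign turned without CP_7 replicate 1 (0.13) or replicate 2 (0.44), neither of them called. None of the 3 comparisons with day 7 therefore passed the threshold, and each of the intervals spans 0.

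Over the whole 14 days miR-34a was higher in CP_14 than in CP_0 by 0.28 on the log2 scale (SE 0.075, adjusted p = 0.020 by limma), where 46.0% of 250 miRNAs were called. All 3 CP_14 libraries lay above all 3 CP_0 libraries. The call was lost without CP_0 replicate 2 (0.27, adjusted p = 0.062 by limma) or CP_14 replicate 2 (0.22, adjusted p = 0.096), and with upper-quartile factors the difference was 0.026. Chondrocytes held less miR-34a than CP_14, with a log2 difference of -0.34 (SE 0.075, adjusted p = 0.0025 by limma), against a background of 74.6% of 276 miRNAs called. This call was kept with each of the 6 libraries left out (-0.40 to -0.32), but it was lost with upper-quartile factors (-0.17, adjusted p = 0.22 by limma) and in a fit of all 12 libraries (-0.33, adjusted p = 0.075), and the sign turned on unscaled reads (0.58). On the TMM scale all CC libraries lay below all CP_14 libraries. The share of all miRNAs without overlap was not counted for this comparison or for CP_14 against CP_0. Against CP_0, chondrocytes differed by -0.20 (SE 0.051, adjusted p = 0.014 by limma, background 55.8%), but the call was lost without CP_0 replicate 1 (-0.18, adjusted p = 0.083) or replicate 2 (-0.20, adjusted p = 0.052), and with factors from all 12 libraries the difference was -0.074. An exact two-sided permutation test was run on the 6 libraries of each comparison, with factors from all 12 libraries, unlike the fits above. The permutation test gave p = 0.1 for CP_14 against CP_0 and for CC against CP_14, the smallest p that 3 against 3 allow, and p = 0.2 for CC against CP_0. In the order of TMM levels from all 12 libraries, CP_14 came first and did not overlap with CP_0, and the values of CP_0, CP_7 and CC overlapped. CC and CP_0 thus differed with factors from their own 6 libraries and not with those from all 12. The 6 comparisons share groups and are not independent of each other.

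The scaling sets the sign of several of these differences. With library size only, miR-34a was higher at day 7 than at day 0 by 1.03 on the log2 scale (adjusted p = 4.4e-04 by limma), while on unscaled reads it was lower by 1.19 (log2 difference -1.19, adjusted p = 0.016). The median log2 difference of all 246 miRNAs tested moved in the same way, to 1.12 and -1.04, so that relative to that median miR-34a stood at -0.086 and -0.15, and at -0.11 with TMM. Relative to the median, the difference of CP_14 from CP_0 lay between 0.27 and 0.28 under the 5 scalings tried. That of CC from CP_14 lay between -0.51 and -0.42, and that of CC from CP_0 between -0.29 and -0.25. A scaling factor shifts all miRNAs of a library nearly alike, so subtracting the median removes most of it by construction, and these narrow ranges are no support for the calls. With TMM, 62.7%, 38.2% and 35.9% of the other miRNAs tested had a lower log2 difference than miR-34a in the 3 comparisons.

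**Figure D2:**
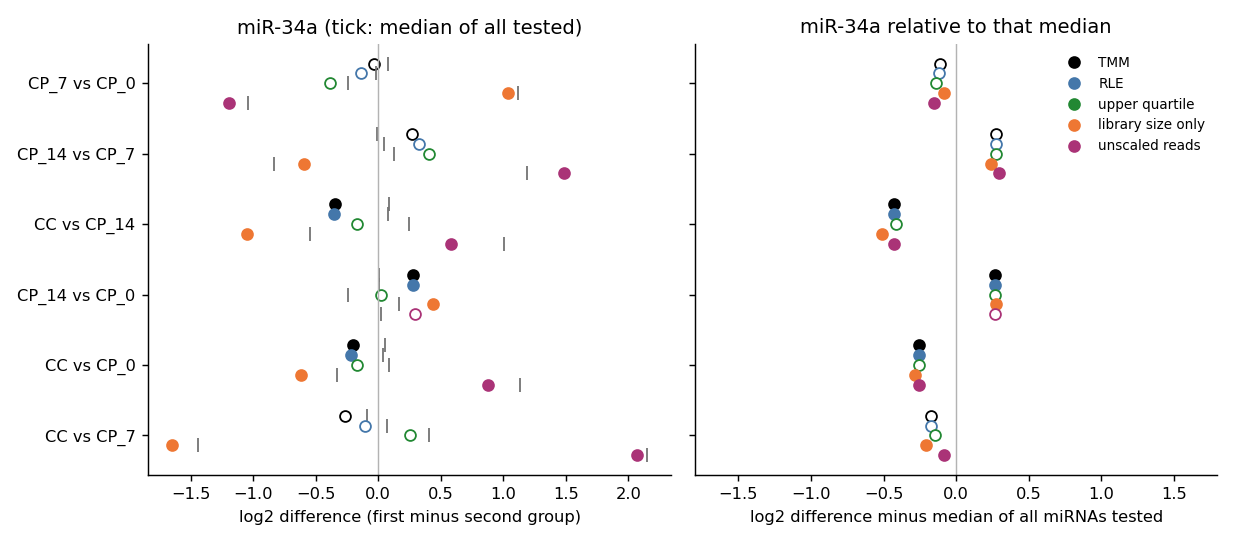
Log2 differences of miR-34a in 6 comparisons under 5 scalings (left, with the median of all miRNAs tested as a tick) and the same after subtracting that median (right); filled points passed an adjusted p of 0.05 by limma. On the left the sign changes with the scaling, for example 1.03 and -1.19 for CP_7 against CP_0, except in CP_14 against CP_0 (0.026 to 0.44). On the right, where subtracting the median removes most of the scaling by construction, the points of a comparison lie close together.

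miR-34c, the member of the shared miR-34b and miR-34c precursor, showed another pattern. The CP_0 libraries held 49, 47 and 273 reads for replicates 1, 2 and 3, which is 16.5, 11.5 and 75.1 RPM. The CP_7 libraries held 4, 1 and 0 reads, or 5.20, 0.97 and 0 RPM. CP_14 had 223, 295 and 247 reads (79.9, 97.5 and 63.9 RPM), and CC had 249, 265 and 248 reads (24.3, 27.3 and 24.9 RPM). CP_0 replicate 3 thus stood with CP_14 and apart from the other CP_0 libraries, and the CP_7 libraries were below all others.

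Pooled over the libraries of a group, miR-34c took 5 of 2341139 reads in CP_7 and 369 of 10707326 in CP_0, a share 16.1 times higher in CP_0 (95% exact Poisson interval 6.85 to 49.99). Without CP_0 replicate 3 that ratio was 6.36 (2.63 to 20.02). From CP_7 to CP_14 the share was 37.0 times higher (15.8 to 114). Since 4 of the 5 reads of CP_7 were in replicate 1, leaving it out left 1 read in 1571484, and the ratios became 54.2 (9.66 to 2145) for CP_0 and 124 (22.2 to 4911) for CP_14, an alternative chosen after seeing the data. In each case CP_7 had the lower share, but the size of the difference rested on a few reads. The share in CP_14 was 2.29 times that of CP_0 (2.02 to 2.603), and 5.82 times (4.70 to 7.27) without CP_0 replicate 3. In chondrocytes the share was 0.322 times that of CP_14 (0.291 to 0.357). It was 0.738 times that of CP_0 (0.651 to 0.839) with all libraries and 1.87 times (1.51 to 2.34) without CP_0 replicate 3, so that this 1 library turned the direction. All these intervals cover the counting error of pooled reads only. They leave out the spread between libraries (49, 47 and 273 reads in CP_0) and are no test of miR-34c, whose reads chose the family. On the TMM scale the level was highest at day 14 with 80.6 ± 13.6 RPM (SD, n = 3), followed by 42.4 ± 3.76 for the chondrocytes, 39.7 ± 41.6 at day 0 and 1.07 ± 1.38 at day 7.

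The values that led to the choice of the family are the reads of miR-34c in 7 libraries, CP_0 replicate 3, the 3 of CP_14 and the 3 of CC. They ran from 223 to 295, a ratio of highest to lowest of 1.32, whereas the depth of these libraries differed 3.67-fold. The coefficient of variation was 8.93% for the reads and 54.1% for the RPM values of miR-34c, and 57.9% for the depth itself. In the same 7 libraries miR-34a had 720 to 1408 reads (ratio 1.96), with a coefficient of variation of 26.7% in reads and 12.8% after TMM normalization. A lower RPM of miR-34c in CC than in CP_14 therefore came with nearly equal reads (762 and 765 in all) at a depth of 29940800 reads in CC and 9681127 in CP_14.

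**Figure D3:**
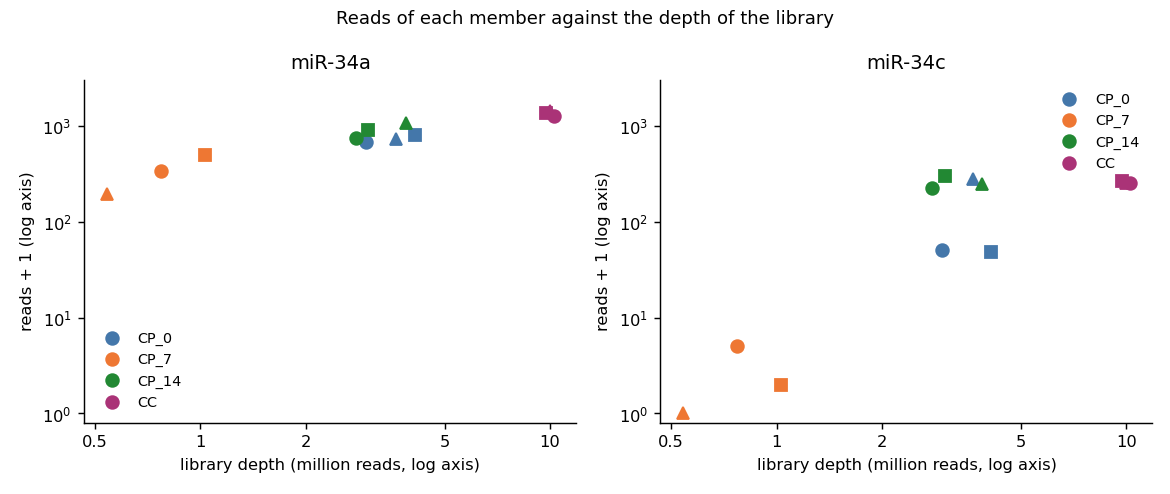
Reads of miR-34a (left) and miR-34c (right) plus 1 against the depth of each of the 12 libraries, both axes logarithmic; colours are groups and symbols are replicates 1, 2 and 3. miR-34a has more reads in deeper libraries (191 to 1408), while miR-34c stays between 223 and 295 reads in CP_0 replicate 3, CP_14 and CC.

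Of 150 miRNAs with at least 50 reads in each of these 7 libraries, 5 had a ratio of highest to lowest reads of at most 1.5, and the median ratio was 2.91. The number was 20 at a ratio of at most 2, miR-34a among them, and 14 at 1.5 when CP_0 replicate 3 was left out of the 7. miR-34c, on which the search was modelled, was the least even of the 5. The others were miR-200a (74 to 82 reads, ratio 1.11), miR-486 (7363 to 8345 reads, ratio 1.13), miR-451 (6039 to 6933 reads, ratio 1.15) and miR-182 (94 to 112 reads, ratio 1.19). miR-451 and miR-486 are microRNAs of red blood cells, and miR-200a and miR-182 are best known from epithelia. In 4 of the 5, miR-200a being the exception, CP_0 replicate 3 had at least 3 times the reads of both other CP_0 libraries, and no other miRNA of the 150 had such a difference. The filter of 50 reads covered CP_0 replicate 3 but not the other CP_0 libraries, in which these 4 were all below 50 reads. They thus passed it through the libraries where they were high, and the count is a description.

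**Figure D4:**
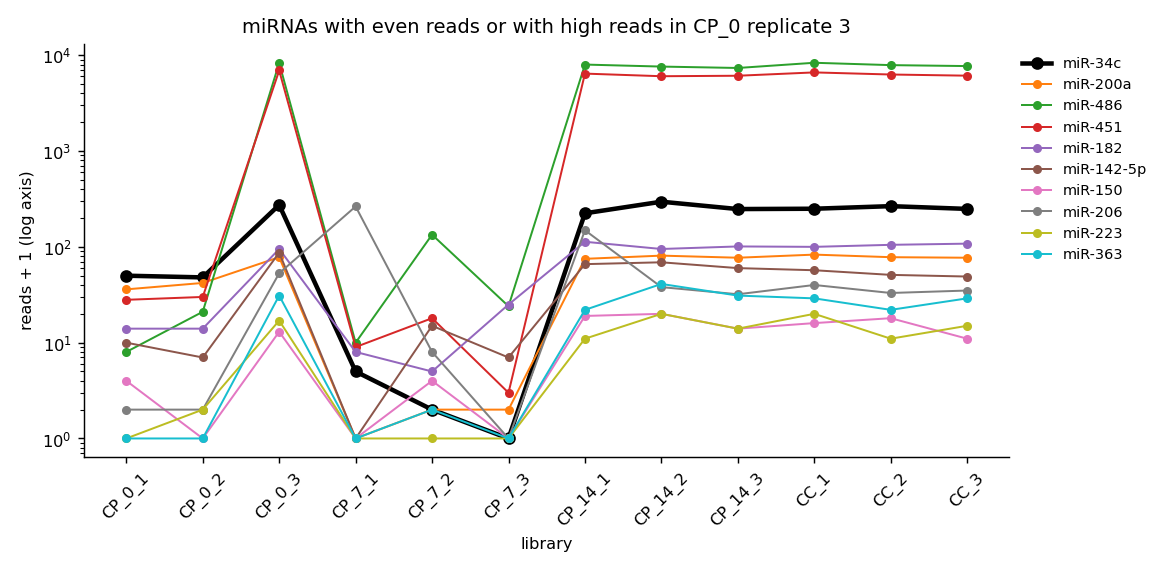
Reads plus 1 (log axis) in the 12 libraries, joined by lines, of the miRNAs with even reads over CP_0 replicate 3, CP_14 and CC or with an RPM in CP_0 replicate 3 at least 3 times that of both other CP_0 libraries. miR-34c (thick black) drops from 49 and 47 reads in CP_0 replicates 1 and 2 to 4, 1 and 0 in CP_7, and lies between 223 and 295 in the other 7 libraries.

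In RPM, 9 of 258 miRNAs with at least 10 reads in a CP_0 library were at least 3 times higher in CP_0 replicate 3 than in both other CP_0 libraries, against 0 for replicate 1 and 1 for replicate 2. Beside miR-34c they were miR-486, miR-451, miR-182, miR-206, miR-363, miR-142-5p, miR-223 and miR-150. Of them, miR-206, miR-363, miR-142-5p, miR-223 and miR-150 had 10 reads or more only in replicate 3. They thus passed the filter through the library where they were high, and the count is a description. Except for miR-206, whose reads differed 4.77-fold, each of the 9 had reads within 2-fold over the 7 libraries. miR-223, for example, had 16 reads in CP_0 replicate 3, 10 to 19 in CP_14 and 10 to 19 in CC. Among the lists of markers of other cells, the erythroid list (miR-451, miR-144 and miR-486, 3 of 3 names with reads) summed to 11.8 to 4192 RPM at day 0 (the highest in replicate 3), 22.1 to 145 at day 7, 3486 to 5167 at day 14 and 1387 to 1460 for CC. miR-144, which lies in the same cluster as miR-451, had at most 2 reads in any library. The white blood cell list (4 of 4 names with reads) summed to 2.20 to 31.3 RPM at day 0, 1.30 to 17.4 at day 7, 21.99 to 35.4 at day 14 and 7.42 to 8.77 for CC. The epithelial list (6 of 6 listed names with reads) was at 27.3 to 41.0, 3.90 to 16.7, 35.4 to 46.2 and 12.6 to 15.5 RPM in the same order. Single names differed from their list: in CP_0, miR-200c (25, 38 and 13 reads), miR-141 (6, 6 and 2) and miR-142-3p (4, 2 and 0) were lowest in replicate 3. In RPM, other lists were highest in CP_7, where miR-34c was lowest: skeletal muscle at 4536 to 6633 RPM, liver at 53.3 to 79.7 and endothelium at 188 to 3083. The RPM of most miRNAs was higher in CP_7 (median log2 difference from CP_0 1.12 with library size only). The lists were not compared with composition factors. The endothelial sum was nearly all miR-126-3p, since miR-126-5p had 2, 0 and 5 reads in CP_7. The neuronal list ran from 123 to 1901 RPM in CP_7 and overlapped with CP_14 (162 to 177). The multiciliated list, the miR-449 names, was at 23.9 to 31.3 RPM at day 0, 15.6 to 26.0 at day 7, 14.5 to 16.5 at day 14 and 10.9 to 17.5 for CC. The part of these other cells, of the depth and of CP_0 replicate 3 in the levels of miR-34c was not tested.

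miR-34b, cut from the same precursor as miR-34c, had few reads. It had 7 reads in all, with 0, 1 and 2 in the CP_0 libraries, 0 in each of CP_7, and 0, 1 and 1 both in those of CP_14 and in those of CC. The 0 of 2341139 reads in CP_7 allow a level of up to 1.28 RPM, and no difference between groups was detectable at this depth. It did not pass the filter on low counts in any of the 6 comparisons, whereas miR-34a and miR-34c passed it in each. Of the 1908 reads on miR-34b and miR-34c together, miR-34b took 0.367% (95% exact Clopper-Pearson interval 0.148 to 0.754).

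The split of the family's reads does not depend on the scaling. miR-34a took 94.3% of them in CP_0 replicate 2, 93.1% in replicate 1 and 72.4% in replicate 3. At day 7 its share was 98.8%, 99.8% and 100% in the 3 libraries. In CP_14 it was 77.7% ± 3.03 (SD, n = 3) and in CC 84.0% ± 0.879. The share of miR-34c ranged from 5.57% to 27.4% at day 0 and from 0 to 1.17% at day 7, and was 22.3% ± 3.04 at day 14 and 16% ± 0.895 for CC, so that the chondrocyte and day 14 libraries did not overlap with each other or with those of day 7. The miR-34c reads that chose the family enter these shares. They were nearly equal in CC and CP_14 (762 and 765 in all), while miR-34a had 4005 and 2695 reads. The separation of CC and CP_14 therefore repeats that pattern and is no further result. No other name had reads within 1% of those of miR-34a or miR-34c in every library, so no second listed name carried copies of their reads.

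Among the miR-449 names, which have the seed of miR-34, miR-449a was present in all 12 libraries, while miR-449b and miR-449c had 16 and 10 reads in all and were filtered out. miR-449a stood at 29.9 ± 2.28 TMM-normalized RPM (SD, n = 3) at day 0, 10.8 ± 2.96 at day 7, 15.1 ± 0.961 at day 14 and 22.04 ± 4.31 in chondrocytes. It fell from day 0 to day 7 with a log2 difference of -1.39 (SE 0.23, adjusted p = 0.0015 by limma), a call kept without each library, and with library size only the difference was -0.37 and uncalled. It was also lower in CP_14 than in CP_0 (-0.92, SE 0.14, adjusted p = 0.0015 by limma), under every scaling tried. Of all miRNAs tested, 63.8% and 46.0% were called in these comparisons. Its log2 difference in chondrocytes was 0.49 from CP_14, -0.56 from CP_0 and 0.73 from CP_7 (adjusted p = 0.035, 0.023 and 0.036 by limma). The backgrounds were 74.6%, 55.8% and 67.4% called. With each library left out in turn, these calls were kept in 2, 3 and 3 of 6 fits. The difference of day 14 from day 7 was 0.42 and uncalled. Over the 5 scalings the difference of miR-449a at day 7 from day 0 ran from -2.53 to -0.37. The reads of miR-34a per read of miR-449a, free of any scaling, were 15.9 to 28.2 at day 7 and 16.3 to 20.2 at day 14, but 7.48 to 8.29 at day 0 and 8.09 to 11.9 in chondrocytes. They were thus higher in every day 7 and day 14 library than in every CP_0 and CC library. How many other pairs of miRNAs have ratios that separate these libraries was not counted, so this is a description.

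By Pearson's r of log2(reads + 1) over the 12 libraries, the 5 miRNAs most like miR-34c among 309 compared were miR-652 (0.98), miR-200b (0.96), miR-200a (0.96), miR-503-5p (0.96) and miR-424-5p (0.96). On this scale the depth of a library moves all its miRNAs together, and the reads of low miRNAs in the shallow CP_7 libraries are few, so the r values are descriptions. On the TMM scale miR-652 again came first (0.95), and its level was highest at day 14 (15.9 ± 3.10 RPM, SD, n = 3) and lowest at day 7 (4.17 ± 1.35 RPM). The 5 most like miR-34a on the TMM scale were miR-1839 (0.75), miR-7857-5p (0.73), miR-2890 (0.69), miR-194b (0.68) and miR-503-5p (0.64). The level of miR-1839 was 291 ± 16.6 RPM (SD, n = 3) at day 14, against 154 ± 2.37 at day 0, 167 ± 23.1 at day 7 and 148 ± 9.76 for CC, with the highest group the same as for miR-34a. Between miR-34a and miR-34c themselves r was 0.44 on the TMM scale.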

How the data were processed

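The authors deposited, per library, reads on each listed miRNA scaled to 1000000 listed reads (RPM, under the header TPM). Per the labels, a NEBNext small RNA kit was used, and the submitters' processing notes name CASAVA, bcl2fastq 1.8.4 and Bowtie. The miRNA database version and the read counter were "not given in the sources used here". Reads were recovered by dividing by the value of 1 read. Pairs of libraries of a group differed by a chi-square of at least 4.92 per degree of freedom, so none was counted as a copy. That lowest value was for CP_14 replicates 1 and 2, while the other pairs ran from 25.6 to 252. Why these replicates of CP_14 were closer to each other was not tested.

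All miRNAs passing edgeR's filterByExpr (minimum count 10, minimum total 15) entered a two-sided limma fit, with trend, of log2(TMM-normalized RPM + 1) on the 6 libraries of each comparison. The software was DESeq2 1.42.0, edgeR 4.0.16 and limma 3.58.1 under R 4.3.3, and the procedure was tested on simulated data. Over the 6 comparisons it recovered 92.4% to 100% of simulated 4-fold changes, and 0 to 6.54% of its calls were false. Apart from those changes the simulated libraries shared a mean profile, with no library apart from its group, so smaller differences and such libraries were not covered. A fold change of log2(TMM-normalized RPM + 1) understates that of miRNAs with few reads. The text names the members, the miR-449 names, the 5 miRNAs most like miR-34c and miR-34a, and miRNAs with even reads. A further list of miRNAs is not reported here. Members and lists were chosen with earlier results of these data known. The 9 miRNAs high in CP_0 replicate 3 were named after their values were seen. Alternatives were other scalings, pseudocounts and tests (edgeR and DESeq2 on recovered reads), a fit over all 12 libraries, a block on the replicate number, leaving out each library and no filter.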

Additional observations from a re-analysis of the deposited data

How the results depend on the processing

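The number of miRNAs called in each comparison stayed within 1.5 times under every alternative. For miR-34a, with library size only the log2 difference was 1.03 for CP_7 against CP_0, and CP_14 against CP_7 gave -0.60, both called and opposite to TMM, and -1.65 for CC against CP_7, now called. On unscaled reads it was -1.19 (CP_7 against CP_0), 2.07 (CC against CP_7), 1.48 (CP_14 against CP_7), 0.58 (CC against CP_14) and 0.88 (CC against CP_0), all called, and 0.29 for CP_14 against CP_0, not called. With upper-quartile factors CC against CP_14 (-0.17), CP_14 against CP_0 (0.026) and CC against CP_0 (-0.17) lost the call and CC against CP_7 turned to 0.26, uncalled. In 1 fit of all 12 libraries the same 3 lost it (-0.33, 0.26 and -0.074), and CC against CP_7 was 0.012. DESeq2 gave 0.25 for CP_14 against CP_0, uncalled. With each library left out, the ranges were -0.41 to 0.067 (day 7 against day 0), 0.16 to 0.53 (day 14 against day 7), -0.40 to -0.32 (CC against CP_14), 0.21 to 0.31 (CP_14 against CP_0), -0.24 to -0.18 (CC against CP_0) and -0.31 to 0.44 (CC against CP_7). The cause of these changes was not tested beyond the medians given above.

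Same-numbered libraries did not deviate together: 4 of 18 pairs had a correlation over 0.1 (-0.29 to 0.17), and 2 of 12 libraries correlated best with their own number. With the replicate number as a block, miR-34a lost the call in CP_14 against CP_0 (0.28) and CC against CP_0 (-0.20), with adjusted p = 0.066 and 0.068 by limma. The block changed no other call of miR-34a.

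For miR-449a the sign turned with library size only in CP_14 against CP_7 (-0.40), CC against CP_14 (-0.18) and CC against CP_7 (-0.58), and on unscaled reads in CC against CP_0 (0.49). For miR-34c, untested, the log2 difference was -0.90 for CC against CP_14, -1.60 with library size only and 0.0034 on unscaled reads. For CC against CP_7 it was 4.46, 3.52 and 6.89 in the same order. On unscaled reads CP_14 against CP_7 was 6.88 (5.71 with TMM) and CC against CP_0 1.55 (0.45). Leaving out 1 library moved CC against CP_0 between -0.023 and 1.252. With a pseudocount of 5 RPM, day 7 against day 0 was -2.72 (-4.19 with 1 RPM), day 14 against day 7 was 4.14 and CC against day 7 was 2.91. The number of miRNAs with even reads, 5, was 20 at a ratio of at most 2, and 14 without CP_0 replicate 3. The depth of CP_7 limits what can be said of miR-34b and miR-34c there.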
